A study of Arabidopsis thaliana with 9 samples.

Results

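Whole seeds of the nac1L loss-of-function mutant were compared with wild type (WT) Col-0 seeds of Arabidopsis thaliana 12 h after the start of imbibition. The comparison is every row of the authors' deposited table that sets nac1L, which the table codes KO1, against WT: 33557 genes, of which the authors tested 18233. It is 1 of 3 pairwise comparisons in a table of 100671 rows, the others setting a second loss-of-function mutant, nac25 (KO2), against WT and the mutants against each other. For each genotype, 20 mg of seeds were laid on plates of 0.6% agarose, and RNA was taken from 3 biological replicates of nac1L, 3 of nac25 and 3 of WT and made into stranded libraries. The labels give neither the allele of the nac1L line, nor the seed batch, nor the light and temperature during imbibition, and they name 1 nac1L mutant, so that what belongs to the NAC1L lesion and what belongs to the line cannot be told apart here.

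NAC proteins are plant transcription factors that share a conserved DNA-binding domain at the amino end and bind sites around the core letters CACG. In an imbibed Arabidopsis seed the embryo is enclosed by the endosperm, a living cell layer under the dead seed coat, and germination needs both growth of the embryo axis and loosening of the endosperm walls over the root tip. Before the root emerges, the seed turns from the programme of maturation to building ribosomes, membranes and walls.

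The deposited table gives a log2 fold of nac1L over WT, an unadjusted p and an adjusted q from Cuffdiff for each gene, and no value per library, so no replicate spread, depth or error can be printed beside a fold. A positive fold means higher in nac1L. "Called" below means a deposited q at or below 0.05. The called gene with the largest q stood at 0.04992 and the first gene outside the threshold at 0.05007. The smallest deposited p is 5e-05, the smallest q 0.000463, and a called gene printed without its q had that q. Because these are whole seeds, fewer cells of a type and less RNA per cell cannot be told apart. Of all tested genes 9.62% passed as higher in nac1L and 18.9% as lower, the shares against which each gene list is read. With a minimum of 2-fold as well, the shares were 0.861% higher and 6.2% lower. Called decreases were also larger than called increases, with medians of -0.72 and 0.52 on the log2 scale, and 320 genes were called lower with a log2 fold under -2, whereas 9 were called higher with one over 2. Some genes with large decreases had too few reads to be tested between the mutants, so the size of their folds is uncertain. Among those named below are EXPA14, XTH33, XTH4, FLA2, NIP1-1, AT4G31320, ARR6, NIA2 and LBD39. The tested genes had a median log2 fold of -0.07. Subtracting it moved the share of higher genes among all called genes to 45.0%, against 33.7% as deposited, so counts in each direction depend on the scaling between libraries, which the sources used here do not give.

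The targeted gene was read first. NAC1L was taken as AT3G12977, a NAC gene at chr3:4143524-4146037 on the plus strand of TAIR10.1 that neither the table nor RefSeq names NAC1L. In the authors' deposited table its log2 fold was -4.61 in nac1L and -1.89 in nac25, each over WT, and the table marks it as too low in reads to be tested. Both genes next to it were called higher in nac1L, and the next gene upstream, AT3G12965, was called lower, with log2 folds over WT of -0.87 in nac1L and -1.10 in nac25 in the authors' deposited table. AT3G12970, just upstream on the other strand, had a log2 fold of 1.24 in the authors' deposited table, and 0.87 in nac25 (q = 0.000866). HAC5 (AT3G12980), a histone acetyltransferase gene just downstream, had 0.35 (q = 0.0449) in nac1L, against 0.02 (q = 0.924) in nac25, and the deposited direct comparison of the mutants placed it lower in nac25 (q = 0.0439). Whether the mutation itself touches these neighbours was not tested. By whole chromosome, the share called lower ran from 18.1% on chromosome 1 to 19.8% on chromosome 3, and the share called higher from 8.9% on chromosome 3 to 10.3% on chromosome 2.

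Promoter windows of 6 genes are printed first as examples from groups described below, and their motifs need not be typical of those groups. Each window is the 250 bases upstream of the annotated start, read 5′ to 3′ along the gene. The windows come from RefSeq's TAIR10.1 by locus ID, since the build used by the authors is not given. EXPA2 encodes a wall-loosening expansin of the endosperm and NIA2 a nitrate reductase, and both were far lower in nac1L. Capitals mark CACG or its reverse complement. The EXPA2 window lies at chr5:1568444-1568693, plus strand, and the NIA2 window at chr1:14158202-14158451, plus strand.
EXPA2: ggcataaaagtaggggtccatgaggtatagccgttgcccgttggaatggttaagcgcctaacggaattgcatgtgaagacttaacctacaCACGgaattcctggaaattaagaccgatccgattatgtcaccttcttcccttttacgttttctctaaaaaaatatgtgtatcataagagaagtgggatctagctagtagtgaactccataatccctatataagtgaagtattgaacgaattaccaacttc
NIA2: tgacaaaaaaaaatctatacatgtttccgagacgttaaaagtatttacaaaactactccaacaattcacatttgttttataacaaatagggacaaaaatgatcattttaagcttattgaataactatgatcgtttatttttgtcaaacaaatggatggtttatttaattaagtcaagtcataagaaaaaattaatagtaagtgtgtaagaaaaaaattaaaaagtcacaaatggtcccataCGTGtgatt
RPS23A and RPS9B encode proteins of the small ribosomal subunit and were lower in nac1L. Capitals mark the telo box AAACCCTA and the site II letters GGCCCA or their reverse complements. The RPS23A window lies at chr3:2970372-2970621 and the RPS9B window at chr5:4936430-4936679, both on the minus strand.
RPS23A: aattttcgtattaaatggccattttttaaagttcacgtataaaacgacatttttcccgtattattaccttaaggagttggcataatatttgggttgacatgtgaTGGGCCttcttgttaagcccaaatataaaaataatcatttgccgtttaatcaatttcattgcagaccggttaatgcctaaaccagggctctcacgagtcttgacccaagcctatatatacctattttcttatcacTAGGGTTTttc
RPS9B: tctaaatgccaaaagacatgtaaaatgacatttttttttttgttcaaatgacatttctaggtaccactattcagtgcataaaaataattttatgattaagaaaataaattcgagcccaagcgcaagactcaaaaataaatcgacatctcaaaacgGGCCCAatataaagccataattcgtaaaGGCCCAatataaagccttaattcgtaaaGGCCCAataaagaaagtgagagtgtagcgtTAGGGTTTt
APRR9 and RVE2 belong to the circadian clock and were higher in nac1L. Capitals mark the G-box CACGTG and ACGTGGC, the core of abscisic acid response elements, or their reverse complements. The APRR9 window lies at chr2:19232357-19232606, plus strand, and the RVE2 window at chr5:14753089-14753338, minus strand.
APRR9: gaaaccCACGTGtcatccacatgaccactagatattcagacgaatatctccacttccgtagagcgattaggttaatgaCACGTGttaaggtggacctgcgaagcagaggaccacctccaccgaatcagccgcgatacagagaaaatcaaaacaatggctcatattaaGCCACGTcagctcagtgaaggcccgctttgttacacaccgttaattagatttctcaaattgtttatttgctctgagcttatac
RVE2: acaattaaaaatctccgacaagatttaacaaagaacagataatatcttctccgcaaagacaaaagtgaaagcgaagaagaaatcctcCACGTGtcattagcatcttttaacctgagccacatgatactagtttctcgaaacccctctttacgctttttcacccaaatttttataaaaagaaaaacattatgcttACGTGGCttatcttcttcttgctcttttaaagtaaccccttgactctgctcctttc

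Each motif was counted on both strands in the same window of 26681 protein-coding genes. CACG is common and separates little: it stood in 45.0% of the windows of genes called lower and in 53.4% of those called higher, against 45.7% of all windows. The G-box, which contains CACG, stood in 13.1% of the windows of genes called higher (221 of 1681), against 7.22% of those called lower and 7.77% of tested genes. ACGTGGC, which can overlap a G-box, stood in 8.45% of the windows of genes called higher, against 3.31% of those called lower and 4.15% of tested genes. Site II letters stood in 20.0% of the windows of genes called lower, but in 10.3% where the decrease was at least 2-fold, against 18.1% of tested genes. These shares are descriptions of letters in a window.

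Protein synthesis genes shifted together. Cytosolic ribosomal proteins assemble with ribosomal RNA into the ribosomes that translate stored and new messages during germination. Of 226 genes named for them, 213 were tested, and 150 (70.4%) were called lower in nac1L and 0 higher by Cuffdiff, against 18.9% and 9.62% of all tested genes. Even at an unadjusted p under 0.05 the number higher was 0, as it was for every other list with 0 called higher except pectin lyase-like and fasciclin-like proteins, with 1 each. Their median log2 fold was -0.44, and 209 of the 213 lay below 0. The decreases were small and alike: the quartiles of the 150 called genes were -0.67 and -0.43, and only 12 of them were at least 2-fold. Both subunits took part, with 56 of 86 small-subunit genes and 94 of 127 large-subunit genes called lower, at medians of -0.39 and -0.47. With the folds centred on the median of all tested genes, 124 were called lower and still 0 higher.

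RPL22A (AT1G02830) had a log2 fold of -2.52 (q = 0.0148) and RPS27AA (AT1G23410) of -1.94 in the authors' deposited table. RPS23A, whose window is printed above, had -1.62 in nac1L and -2.98 in nac25 over WT, and the direct comparison called it lower in nac25 (log2 fold of nac25 over nac1L -1.36, q = 0.00573). RPL26B followed at -1.45, RPS8B at -1.29 and RPL31B at -1.27 in the authors' deposited table. RPS9B stood near the middle of the group at -0.37 (q = 0.0195). Copies of one ribosomal protein are near identical in sequence, so how reads were split between them is uncertain. In nac25 over WT, 198 of 213 were called lower at a median of -0.66, where 32.8% of all tested genes were, and the direct comparison called 71 of 212 lower in nac25 than in nac1L and 0 higher, against 11.7% and 0.609% of all genes it tested. Site II letters stood in 54.9% of the tested ribosomal windows and the telo box in 21.1%, against 13.9% and 4.45% of all windows, a known feature of this family.

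**Figure D1:**
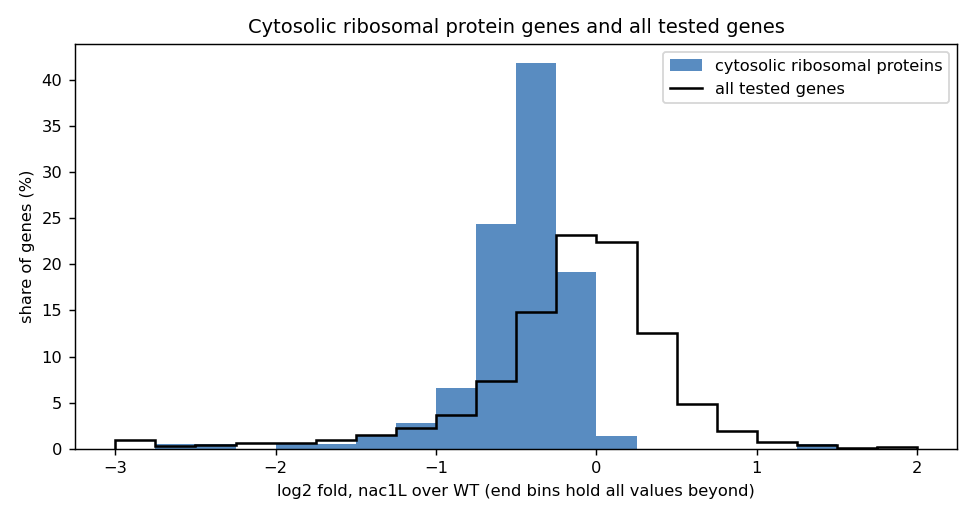
Share of genes (%) in bins of 0.25 on the log2 scale of the deposited fold of nac1L over WT, for cytosolic ribosomal protein genes (bars, 213 genes) and all tested genes (line); the end bins hold all values beyond them. The ribosomal genes pile up between -0.75 and -0.25, while the tested genes as a whole are spread around a median of -0.07.

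Nucleolar factors that process ribosomal RNA had 7 of 22 called lower and 1 higher (median -0.14), among them SWA1 at -0.51 (q = 0.014), the RNA methyltransferase gene RID2 (AT5G57280) at -0.50 and RID3 at -0.44 (q = 0.00599) in the authors' deposited table, and the nucleolin gene NUCL2 on the other side at 0.32 (q = 0.0491). After centring, 3 of the 22 were called lower, against 2775 of all 18233 tested genes. Small nucleolar RNAs, which guide modification of ribosomal RNA, had 16 of 66 tested genes (24.2%) called lower and 0 higher by RefSeq's gene types. Of all tested genes, 18.9% were called lower and 9.62% higher, so the share lower is near that of all genes. The small nucleolar RNAs had a median of -1.10. They are short, and the part of library preparation in these values was not tested. Of 55 proteasome subunit genes tested, 17 were called lower and 1 higher (median -0.20), with RPT4A at -0.52, PBB2 at -0.54 and PBC2 at -0.52 the lowest called in the authors' deposited table and RPT1B at 0.73. After centring, 10 of the 55 were called lower, again beside 2775 of all 18233 tested genes. None of the 17 was 2-fold lower. The centred counts of the nucleolar and proteasome lists are thus near those of all genes.

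Wall-loosening genes had the lowest medians of the lists examined. Plant cells enlarge when expansins, which loosen the bonds between cellulose and its matrix, and xyloglucan endotransglucosylase/hydrolases (XTH), which cut and rejoin xyloglucan tethers, let the wall yield. Expansins had 11 of 14 tested genes called lower and 1 higher, at a median of -2.52, and XTH genes 10 of 18 and 1, at -1.80. EXPA2 stood at a log2 fold over WT of -4.21 in nac1L and -4.88 in nac25 in the authors' deposited table, and the direct comparison called it lower in nac25 (log2 fold of nac25 over nac1L -0.67, q = 0.000866). EXPA14 (-3.59, q = 0.016), EXPA1 (-3.47), EXPA8 (-3.03), EXPA10 (-3.02) and EXPA9 (-2.98) followed in the authors' deposited table, and EXLA1, an expansin-like gene, rose (0.82, q = 0.00702). XTH33 (-5.95, q = 0.014) and XTH31 (-5.34) had the lowest folds of their list, and the authors' deposited table called XTH9 (-3.60), XTH4 (-3.55), XTH19 (-3.54) and XTH15 (-3.18) lower and XTH11 (0.71) higher.

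Pectin genes shifted less as lists. Pectin methylesterases strip methyl groups from homogalacturonan and so set how stiff and how digestible it is, and pectin lyase-like proteins cut it. Of 21 pectin methylesterase genes tested, 8 were called lower and 2 higher (median -0.22). The lowest in the authors' deposited table were PME41 (-2.64), PME3 (-2.43), PME44 (-2.12), PME12 (-1.96) and PME18 (-1.93), and PME32 rose (1.06, q = 0.00876). Pectin lyase-like genes had 8 of 27 called lower and 0 higher (median -0.16), led by AT3G15720 (-3.93), PMR6 (-2.22), AT3G06770 (-2.13) and AT4G13710 (-1.63) in the authors' deposited table. Arabinogalactan proteins, heavily glycosylated proteins at the cell surface, had 7 of 23 called lower and 1 higher (median -0.56), with AGP31 at -1.68 and AGP15 at -1.58 in the authors' deposited table. Their fasciclin-like relatives had 3 of 11 called lower and 0 higher (median -0.40), FLA2 at -3.92 and FLA1 at -1.53 (q = 0.00409).

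Genes of the enzymes that make cellulose were called in both directions. Of 7 cellulose synthase genes tested, 1 was called lower and 2 higher (median 0.00): CESA1, a subunit of the primary wall complex, at -0.40 (q = 0.00925), and CESA2 and CESA9 at 0.54 and 0.60 (q = 0.0135 for CESA9) in the authors' deposited table. Cellulose synthase-like genes had 3 of 13 lower and 4 higher (median 0.02). The lowest were CSLC4 (-2.72), of the family that makes the xyloglucan backbone, and CSLA2 (-2.26), of the family that makes glucomannan, while CSLB4 (1.57) was the highest in the authors' deposited table.

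Ketoacyl-CoA synthases (KCS) lengthen fatty acids for waxes, cutin and suberin, and many GDSL lipases act on cutin and other surface lipids. KCS genes had 5 of 14 called lower and 2 higher (median -0.25). KCS8 (-3.66), KCS16 (-2.79), KCS20 (AT5G43760; -2.44, named KCS19 in the table), FDH (-1.91) and CUT1 (-1.64) were the 5 lower ones in the authors' deposited table, and KCS17 (AT4G34510; named KCS2 in the table) and KCS21 (AT5G49070; named KCS20 in the table) the 2 higher ones, at 1.17 (q = 0.00159) and 1.297 (q = 0.0253). GDSL lipases had 15 of 35 called lower and 2 higher (median -0.29), with AT4G16230 at -3.78, AT5G45670 at -3.63 and ARAB-1 at -3.38 in the authors' deposited table.

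Aquaporins had 11 of 22 called lower and 2 higher (median -0.49). NIP1-1 (-3.997, q = 0.0277), PIP2-8 (-2.00), PIP1-3 (-1.67) and PIP2-7 (-1.53) were the lowest in the authors' deposited table, and the 2 that rose, TIP3-1 (0.52, q = 0.00519) and TIP3-2 (0.48, q = 0.000866), are the seed-specific aquaporins of protein storage vacuoles. Every one of the 15 tubulin genes was tested and 11 were called lower, 0 higher (median -0.49), with TUB5 (AT1G20010) at -2.61, TUA6 (AT4G14960) at -1.63 and TUA4 (AT1G04820) at -1.59 in the authors' deposited table. Tubulin copies share long identical stretches, so the split of reads among them is uncertain. Actins had 3 of 6 called lower and 0 higher, ACT11 at -2.76 in the authors' deposited table. D-type cyclins, which open the cell cycle, had 5 of 9 called lower and 0 higher (median -0.50), led by CYCD1-1 (-1.34, q = 0.00381) and CYCD4-1 (-1.11, q = 0.00159) in the authors' deposited table. Plasma membrane proton pumps, which acidify the wall, went the other way on balance, with 3 of 9 higher (AHA4, AHA5 and AHA8, at 0.56, 0.61 and 0.56 with q = 0.0287, 0.0197 and 0.0392 in the authors' deposited table) and 1 lower, AHA2 at -1.21.

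**Figure D2:**
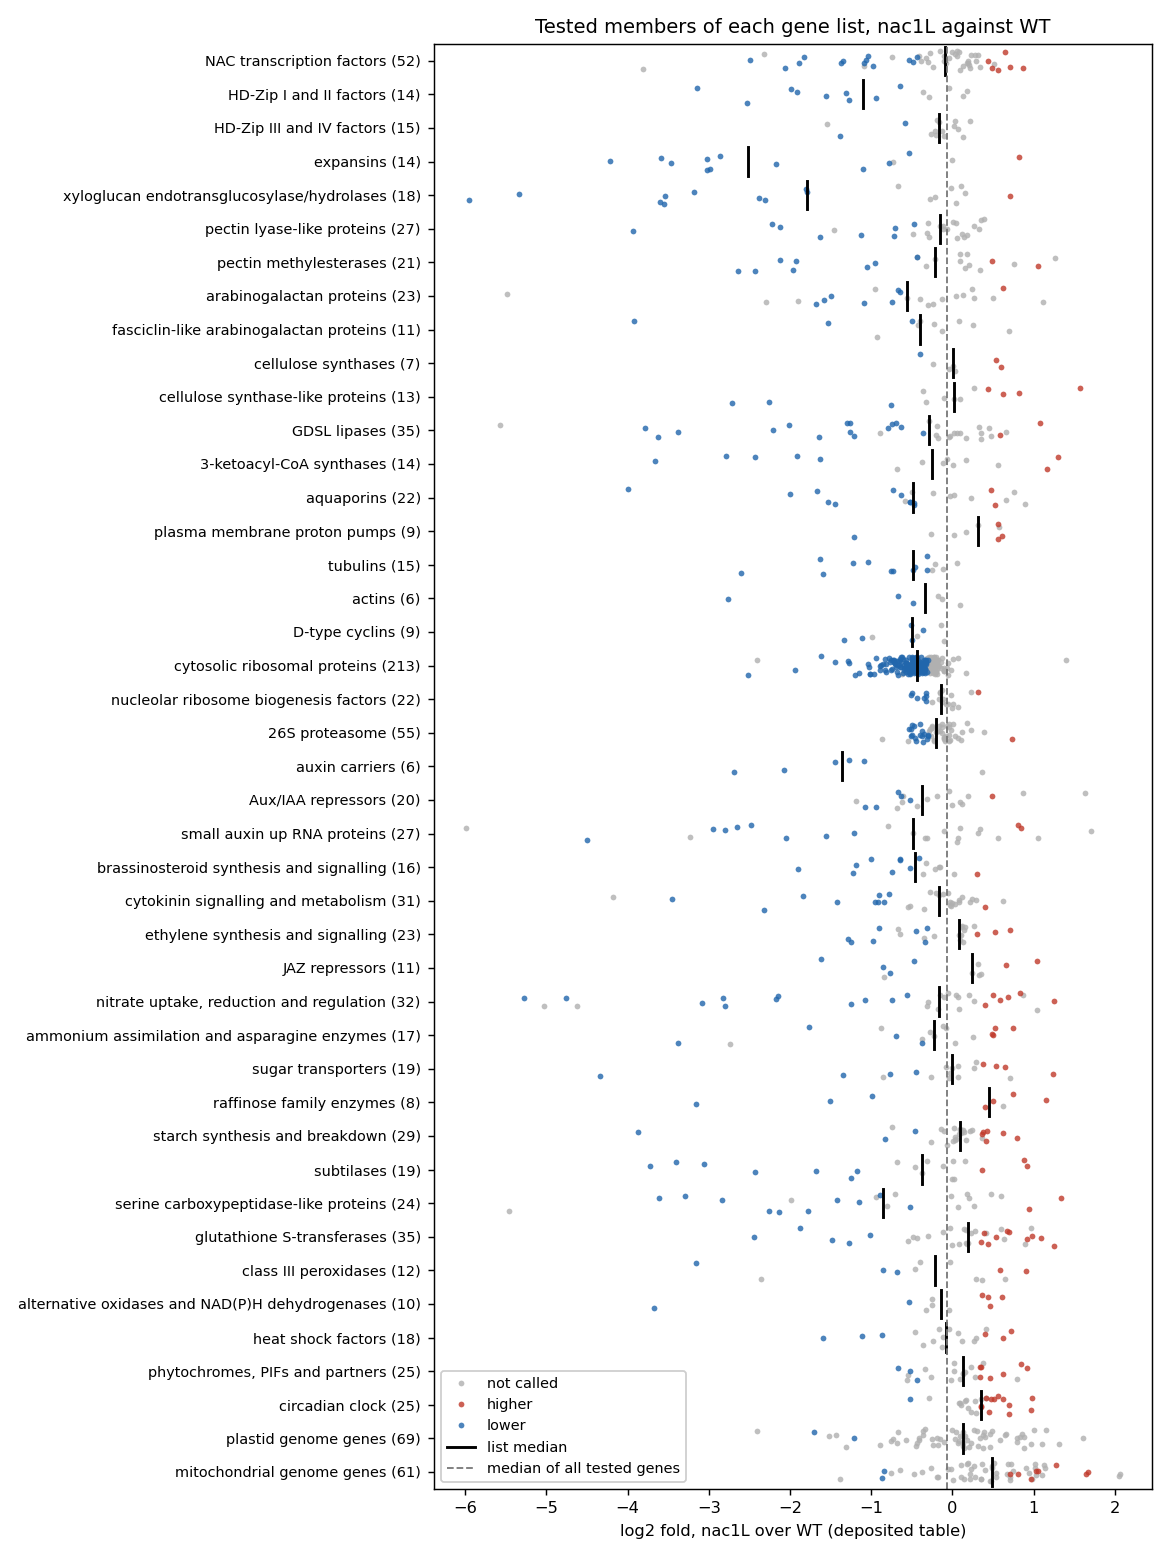
Deposited log2 fold of nac1L over WT for the tested members of each gene list, 1 point a gene, with the number tested in brackets. Red points were called higher, blue points lower and grey points neither. The black bar is the list's median and the dashed line the median of all tested genes, -0.07. Members listed at 0 in one genotype have no finite fold and are not drawn. Expansins, XTH genes, auxin carriers and HD-Zip I and II factors have medians under -1, and cytosolic ribosomal proteins form a tight cluster just below 0.

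Among hormone genes, auxin transport stood lowest. Auxin is moved from cell to cell by PIN exporters and the AUX1 importer, and the gradients they set direct organ growth. Of 6 carrier genes tested, 5 were called lower in nac1L and 0 higher (median -1.36). Among them, PIN7 had -2.69, AUX1 -2.07, PIN3 -1.44 and PIN2 -1.09 in the authors' deposited table. PIN4 had 0.36 (q = 0.255) in nac1L, against 0.94 (q = 0.00193) in nac25, and the direct comparison called it higher in nac25 (log2 fold of nac25 over nac1L 0.58, q = 0.0195). Small auxin up RNA (SAUR) proteins, many of which promote cell expansion, had 10 of 27 called lower and 2 higher (median -0.48). A run of neighbouring SAUR genes on chromosome 4 was among them, with AT4G34800 at -2.95, AT4G34760 at -2.80 and AT4G34810 at -2.66 in the authors' deposited table and AT4G34770 listed at 0 in nac1L. AT5G66260 was also listed at 0 in nac1L, and AT4G31320 had -4.50 (q = 0.014). Aux/IAA repressors had 5 of 20 called lower and 1 higher (median -0.38), led by IAA16 (-1.08) and IAA33 (-0.95, q = 0.00779) in the authors' deposited table.

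Brassinosteroids are growth steroids, and their synthesis genes fell with their receptor gene. Of 16 genes tested, 9 were called lower and 1 higher (median -0.47). The synthesis genes CYP90B1 (-1.90), DIM (-1.22), CYP90A1 (-1.19) and CYP85A2 (-0.999) were called lower. The receptor gene BRI1 (-0.52) and the transcription factor gene BZR1 (-0.65, q = 0.00124) were also lower in the authors' deposited table. Genes for brakes on the pathway were called in both directions. BKI1, which encodes an inhibitor of the BRI1 kinase, was lower (-0.74, q = 0.00409). The kinase gene ASK7 (BIN2) was the higher one (0.30, q = 0.0475). Cytokinin genes had 9 of 31 called lower and 1 higher (median -0.16). The response regulator genes ARR6 (-3.45, q = 0.0164) and ARR4 (-1.84), the oxidase gene CKX5 (-2.32) and the activating enzyme gene LOG7 (-1.43, q = 0.00573) were among the lower ones in the authors' deposited table, and the receptor gene AHK3 was the higher one (0.40, q = 0.00573). Ethylene genes had 7 of 23 called lower and 3 higher (median 0.08), with the last enzyme of synthesis, ACO1, at -1.25, EIL5 at -1.28 and the receptor gene ERS1 at -0.98 in the authors' deposited table, and ACS2 at 0.71 and ERS2 at 0.53 (q = 0.0102 for ERS2). JAZ repressors of jasmonate signalling had 4 of 11 lower and 2 higher: JAZ10 (TIFY9) at -1.62 and JAZ1 (TIFY10A) at -0.85, and JAZ8 (TIFY5A) at 1.05 (q = 0.0156) in the authors' deposited table.

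Nitrate is a germination signal as well as a nutrient. It is taken up by NRT transporters, reduced by nitrate reductase (NIA1, NIA2) and nitrite reductase (NIR1), and sensed through NLP transcription factors. Of 32 genes tested, 11 were called lower and 6 higher (34.4% and 18.8%; median -0.17). The lower ones included the reduction steps and genes that respond to nitrate: in the authors' deposited table NIA2 had -4.75, NIR1 -3.08, NIA1 -2.17, the ferredoxin reductase gene RFNR1 -1.08, RFNR2 -0.56 (q = 0.00702), the siroheme enzyme gene UPM1 -0.75, and the LBD39 repressor -5.27. LBD37, its close relative, had -5.03 and did not pass the test (q = 0.0693). Transport was mixed, with NRT2.6 at -2.82, NPF4.6 at -2.15 and NRT3.1 at -1.25 against NRT2.5 at 1.25 and NPF6.3 (NRT1.1), the dual-affinity sensor and transporter, at 0.49 in the authors' deposited table. Of the NLP regulators, NLP8, known for nitrate-promoted germination, had 0.83, NLP9 0.68, NLP7 0.59 and NLP4 0.40 (q = 0.0202), all called higher in the authors' deposited table, and NLP3 was the one called lower at -2.80. After reduction, the plastid glutamine synthetase gene GLN2 had -1.77 (q = 0.00124) and the asparaginase gene ASPGB1 (AT3G16150) -3.39, while ASN1, an asparagine synthetase gene, had 0.75 in the authors' deposited table. That list of 17 genes had 4 called in each direction.

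In the plant circadian clock, the morning MYB-like factors CCA1 and LHY and the PRR proteins repress one another through the day. The related REVEILLE (RVE) proteins include activators, and the evening complex (ELF3, ELF4, LUX) and GI act later. Of 25 genes, all tested, 12 (48.0%) were called higher in nac1L and 1 lower, against 9.62% and 18.9% of all tested genes. The median log2 fold was 0.36, 23 of 25 lay above 0, and none reached 2-fold. The activators RVE8 (0.97), RVE4 (0.56, q = 0.00124) and RVE6 (0.36, q = 0.0491) and RVE8's partner LNK2 (AT3G54500; 0.97) were higher in the authors' deposited table. So were RVE3 (0.70), RVE2 (0.62, q = 0.00259) and LHY (0.51, q = 0.0221). Of the PRR genes, APRR9 had 0.70 (q = 0.00381), APRR3 0.47 (q = 0.00124) and APRR7 0.41 (q = 0.0144), and APRR5 (0.41, q = 0.0992) and TOC1 (APRR1; 0.19, q = 0.245) did not pass the test in the authors' deposited table. The evening complex gene ELF4 was the one called lower (-0.52), and LUX had -0.29 (q = 0.104). In nac25 over WT, 7 of 25 were called higher and 2 lower (median 0.16), against 6.25% and 32.8% of all tested genes. The deposited direct comparison called 2 of 25 higher in nac1L than in nac25 and 0 lower, against 11.7% and 0.609% of all genes it tested. RVE2 had 0.62 in nac1L and -0.01 in nac25 over WT (direct q = 0.000463). LHY had 0.51 in nac1L and 0.07 in nac25 (direct q = 0.0415). The evening element AAAATATCT, through which morning factors act, stood in 24.0% of the clock windows (6 of 25), against 2.39% of all windows. It stood in 0 of the 12 windows of clock genes called higher. Of those 12, 5 (41.7%) held a G-box and 6 (50.0%) ACGTGGC, but each of these motifs also stood in 40.0% of all 25 clock windows.

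**Figure D3:**
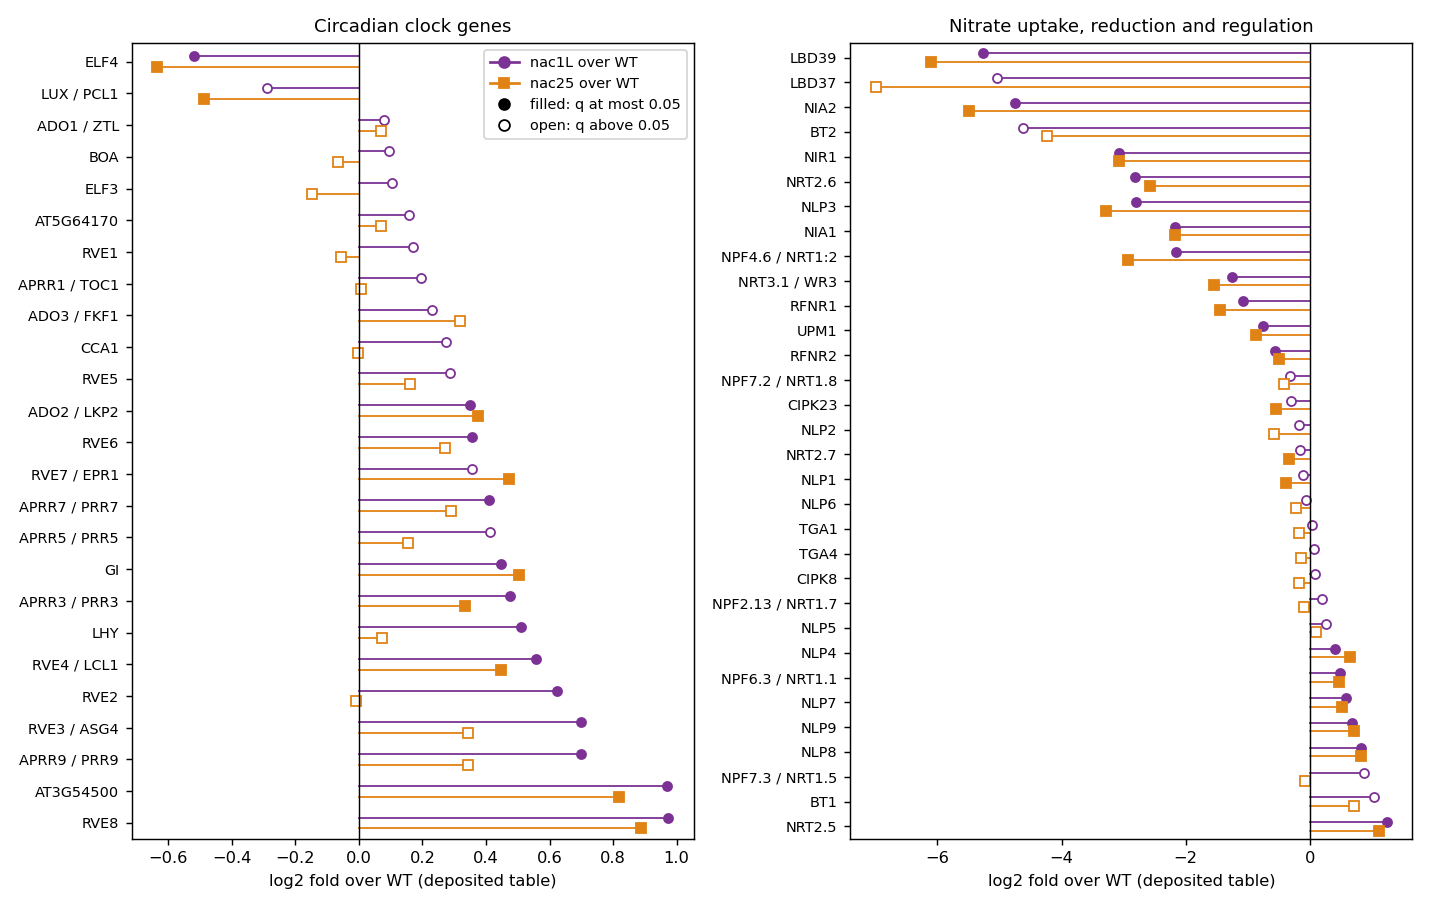
Deposited log2 folds over WT of the 25 clock genes (left) and the 32 tested nitrate genes (right), with nac1L as circles above nac25 as squares for each gene. Filled symbols have q at or below 0.05. Most clock genes lie to the right of 0 in nac1L, up to 0.97 for RVE8, while NIA2 and NIR1 lie far to the left and the NLP regulators 4, 7, 8 and 9 to the right.

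Light signalling genes were divided. Phytochromes are the red light receptors that promote germination, and the PIF factors oppose them. Of 25 genes tested, 7 were called higher and 3 lower (median 0.13). PIF6 (0.91), PHYD (0.85), PHYE (0.62), SPA4 (0.46, q = 0.0131) and PIF1 (0.34, q = 0.0217), the main repressor of germination in the dark, were higher in the authors' deposited table, and PIF4 (-0.67, q = 0.00159), PIF3 (-0.53, q = 0.00193) and HY5 (-0.44, q = 0.0202) lower.

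Genes for carbon reserves were called in both directions. Seeds store raffinose family sugars, made by galactinol synthases (GOLS) and raffinose or stachyose synthases. In the authors' deposited table GOLS2 (1.15), stachyose synthase RFS4 (0.74) and GOLS1 (0.50, q = 0.00259) were higher, while RFS6 (-3.16), RFS1 (-1.51) and RFS2 (-0.99) were lower. RefSeq names RFS1 and RFS2 seed imbibition 1 and 2 (SIP1 and SIP2), and RFS6 DIN10, a gene known for induction in darkness. Whether these 3 lower genes act in making raffinose family sugars was not tested, so they are not read as synthases here. Of 8 genes tested, 4 were called higher and 3 lower. The sucrose importer genes SUC1 (-4.34) and SUC2 (-1.35) were the lowest of 19 sugar transporter genes in the authors' deposited table, 4 of which were called in each direction, with SWEET6 (1.23) the highest. Starch genes had 3 of 29 called lower and 6 higher (median 0.09). QQS, a small protein gene that affects starch content, had -3.87 and the cytosolic phosphorylase gene PHS2 -0.83, while the catalytically inactive beta-amylase gene BAM9 had 0.80 and the limit dextrinase gene PU1 0.63 (q = 0.0129) in the authors' deposited table.

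Among secreted proteases, subtilases had 7 of 19 called lower and 3 higher (median -0.38), with AT5G59130 at -3.73, AT5G45650 at -3.40 and ATSBT1.3 at -3.06 in the authors' deposited table. Serine carboxypeptidase-like genes had 10 of 24 lower and 2 higher (median -0.85), from SCPL44 (-3.61), SCPL48 (-3.30) and SCPL25 (-2.84) to SCPL8 (1.34) in the authors' deposited table.

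Glutathione S-transferases, which attach glutathione to reactive or foreign compounds, had 10 of 35 called higher (28.6%) and 5 lower (median 0.19). GSTU2 (1.25, q = 0.00547), GSTF7 (1.10) and GSTF3 (0.98) were the highest in the authors' deposited table, and GSTU8 (-2.44, q = 0.00493), GSTU27 (-1.88, q = 0.000866) and GSTU20 (-1.49) the lowest. Class III peroxidases had 2 of 12 higher and 3 lower, PER17 at -3.16 in the authors' deposited table. Alternative oxidases and NAD(P)H dehydrogenases, the bypass routes of plant respiration, had 4 of 10 higher and 2 lower, NDA2 at 0.61 and NDB3 at -3.68 in the authors' deposited table. Heat shock factors had 3 of 18 in each direction, with the seed factor gene HSFA9 at 0.72 and HSFA3 at -1.60 (q = 0.0295) in the authors' deposited table.

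Among transcription factors, HD-Zip I and II proteins, which act in light, auxin and water-stress responses, had 9 of 14 called lower (64.3%) and 0 higher (median -1.11). HAT7 (-3.15), HAT1 (-2.53), ATHB-5 (-1.99), ATHB-4 (-1.91, q = 0.00381), ATHB-16 (-1.56) and HAT2 (-1.31) were the lowest in the authors' deposited table. HD-Zip III and IV proteins had 2 of 15 called lower (13.3%, below the 18.9% of all tested genes) and 0 higher. These were ATHB-8 at -1.38 and ATHB-15 at -0.58 (q = 0.0323), and after centring 1 was called lower. NAC genes themselves had 13 of 52 lower and 6 higher (median -0.09). The organ boundary genes CUC1 (NAC054; -2.49) and CUC2 (NAC098; -1.35, q = 0.000866) and the root cap genes FEZ (-1.83, q = 0.0127) and SMB (-0.98, q = 0.00876) fell in the authors' deposited table. So did NAC084 (AT5G14000, -2.07), NAC048 (AT3G04420, -1.89) and ATNAC3 (AT3G29035, -1.37). Among the 6 higher ones were the stress-related genes ATAF1 (NAC002, 0.49), NAC032 (anac032 in the table, 0.56), NAC016 (0.71) and NAC102 (0.87). NAC025, the gene of the other mutant, had -2.66 in nac1L and -3.97 in nac25 over WT in the authors' deposited table, also too low in reads to be tested.

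Genes of the organelle genomes were read apart. Of 61 mitochondrial genome genes tested, 9 were called higher (14.8%) and 3 lower (4.92%), at a median of 0.48. ORF111B (1.67, q = 0.00547), ORF110B (1.64), ATP6-1 (1.27, q = 0.0362) and NAD4L (1.05, q = 0.0337) were higher in the authors' deposited table, and the ribosomal RNA genes RRN26 (-0.87) and RRN18 (-0.84) lower. Of 69 plastid genome genes tested, 1 was called higher and 2 lower (median 0.13), RPS18 at -1.70 (q = 0.0337) and PSBA, the photosystem II core gene, at -1.22 in the authors' deposited table. The labels do not say whether RNA was selected by its tail, and the part of such a step in these values was not tested.

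Some genes were listed at 0 in one genotype, so that no fold can be given. Of 27 such called genes, 21 were listed at 0 in nac1L and 6 in WT. Those at 0 in nac1L included ACL5, which makes thermospermine, the growth peptide genes CLE1 (q = 0.0309) and RTFL6 (q = 0.0029), the lipid transfer protein gene AT2G13820 and the precursors of miR171b (MIR171B, q = 0.00651) and miR161 (MIR161, q = 0.0327) in the authors' deposited table. A value of 0 in this table can be a failed estimate. Of 34 microRNA precursor genes tested, 5 (14.7%) were called lower and 0 higher, against 18.9% and 9.62% of all tested genes. Their median was -0.59, and 1 was higher at an unadjusted p under 0.05 from Cuffdiff. Reads of a precursor say nothing of the mature miRNA.

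Genes where nac1L lay above both WT and nac25, or below both, were read with the deposited direct comparison, which reports nac25 over nac1L. It called 2078 of 17743 genes (11.7%) higher in nac1L and 108 (0.609%) lower. The 2078 include genes that were lower than WT in both mutants and lowest in nac25, such as EXPA2. Of the 1754 genes called higher in nac1L than in WT, 195 with a finite fold were also higher than in nac25. Of the 3449 called lower, 9 with a finite fold were also lower than in nac25. Both counts are to be read beside the 11.7% and 0.609% of all genes. For each such gene the 2 calls share the nac1L libraries, so they are not independent. The 9 were led by TPS09, a terpene synthase gene, with -4.02 in nac1L and -2.49 in nac25 over WT (direct q = 0.00193), and HEI10, a meiotic crossover gene, with -3.03 in nac1L and -0.45 in nac25 (direct q = 0.000463) in the authors' deposited table. PDF1, an epidermal gene, had -0.87 in nac1L and -0.50 in nac25 (direct q = 0.0388), the storage albumin gene AT2S2 -0.71 in nac1L and -0.22 in nac25 (direct q = 0.000463), and UBQ11 -0.47 in nac1L and -0.01 in nac25 (direct q = 0.000866). The others were AT2G01021, AT5G06270, AT5G67490 and AT1G67105 (q = 0.0206), between -0.93 and -0.63 in nac1L. On the higher side, ATL33, a RING finger gene, had 2.08 in nac1L and 1.25 in nac25 (direct q = 0.0303), NIT4, which acts in cyanide detoxification, 1.79 in nac1L and 1.298 in nac25 (direct q = 0.0319), and AT1G26380, a berberine bridge enzyme-like gene, 2.09 (q = 0.00779) in nac1L and -0.08 (not tested) in nac25 (direct q = 0.00124) in the authors' deposited table. POT5 (HAK5), a high affinity potassium importer gene, had 1.58 in nac1L and 0.16 in nac25, and the terpene synthase gene TPS06 had 1.42 in nac1L and -0.19 in nac25 (direct q = 0.000463 for each). BRCA1, a DNA repair gene, had 1.46 in nac1L and 0.48 in nac25 (direct q = 0.000463).

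**Figure D4:**
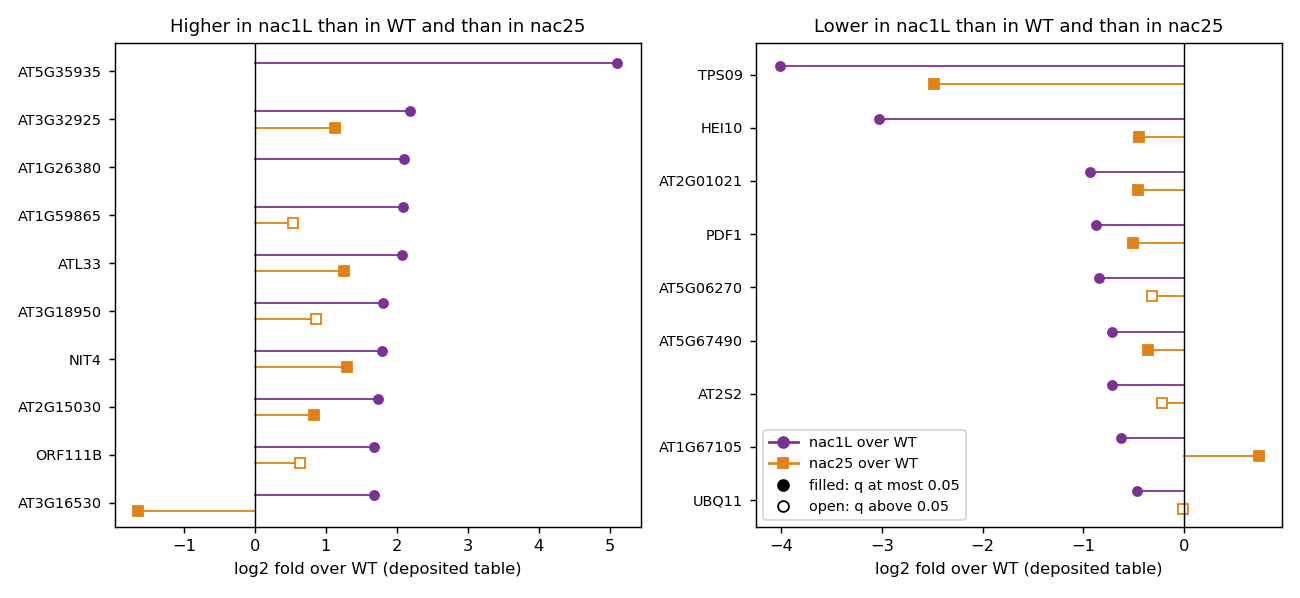
Deposited log2 folds over WT of the 10 genes with the largest increases (left) and the 9 genes with decreases (right). All were called in nac1L against WT and in the same direction against nac25 in the direct comparison, and both calls use the same nac1L libraries. Circles are nac1L, drawn above nac25 as squares. Filled symbols have q at or below 0.05, and a missing square was not tested. HEI10 lies at -3.03 in nac1L and -0.45 in nac25, and AT3G16530 at 1.67 in nac1L and -1.64 in nac25.

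The tissue label was read against marker genes. Of 9 endosperm markers, 4 were tested and 3 called lower in nac1L, EXPA2, MAN7 (-1.73) and CYP707A2 (-1.07) in the authors' deposited table. ICE1 (SCRM), also an endosperm regulator, had 0.02 (q = 0.943). Of 10 embryo markers, 8 were tested, all with a fold below 0, and 3 were called lower: in the authors' deposited table SHR had -2.78, PDF1 -0.87 and LTP1 -1.95. Of 8 seed coat markers, 7 had too few reads, and GL2, also an embryo gene, had -1.54 (q = 0.194). Of 10 reserve genes, 5 were tested, SESA1 (AT2S1) being lower (-2.09), SESA2 (AT2S2) lower (-0.71) and OLEO2 higher (0.40, q = 0.0337) in the authors' deposited table. CRU2 (CRB) had -0.15 (q = 0.536) and SESA4 (AT2S4) 0.19 (q = 0.288). The other 5, CRU1, CRU3, SESA3, SESA5 and OLEO1, were among 17 genes left untested for too many reads. Of 4 markers of other organs found, SAG12 and VGD1 had too few reads, and RBCS1A (-0.61) and CAB1 (LHCB1.3; -1.84, q = 0.00465) were lower. No LAT52 gene was matched. Every called embryo and endosperm marker was lower, as were most called genes of the wall and growth lists, and the part of tissue shares in those results was not tested.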

How the data were processed

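RNA from imbibed seeds was sequenced in 9 stranded libraries, 3 of each of 3 genotypes, per the labels' protocols. Per the submitters' processing notes reads were checked with FastQC (version 0.11.5), aligned with TopHat2 (2.1.0) and compared with Cuffdiff (2.2.1.3). The build, annotation and scaling were not given in the sources used here. For each gene and comparison the deposited table has a log2 fold, a p-value and a q-value computed by the authors with Cuffdiff, and a test status. It holds no counts or values per library, so the depth is unknown, the tests planned per library were replaced by the deposited q, and p-values measure only the spread between these samples. The deposited q equals a Benjamini-Hochberg adjustment over the 54131 tests of all 3 comparisons to within 5.3e-07. There were 0 columns of samples outside the study.

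The direction of the fold, second sample over first, follows Cuffdiff's convention. Folds that are not finite were read as a gene listed at 0 in one genotype. A spreadsheet had turned 23 gene names into dates, and these genes are used by their IDs. Of the 33557 IDs, 32809 matched RefSeq's TAIR10.1 annotation, which gave names, gene types, neighbours and promoter sequences.

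Gene lists, 43 of them besides 5 marker sets, were drawn by symbol and product name. The members and lists were chosen with earlier results of these data known. The text names NAC1L, NAC25 and EXPA2, per list at most 6 called members ranked by absolute fold with further members where the list turns on them, genes from the 25 largest folds in each direction, genes listed at 0 in one genotype, and the 10 largest folds on each side that the direct comparison of the mutants also called. The neighbours of NAC1L, APRR5, the markers and the genes with opposite calls in the mutants were named besides. Lists are described by counts and medians, with no set test. Alternatives were a q threshold of 0.01, adjustment over this comparison alone, centring on the median fold with p recomputed, a minimum of 2-fold, and nuclear genes only. Scripts ran in Python 3.11.15 with pandas 2.3.3, scipy 1.17.1, numpy 2.4.6 and matplotlib 3.10.9, and the adjustment and centring steps were tested on simulated data. Whether samples sharing a replicate number were paired is not stated.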

Additional observations from a re-analysis of the deposited data

Results flagged for a closer look

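There were 7 genes called in opposite directions in the 2 mutants against WT in the authors' deposited table and called again between them. Both mutant comparisons share the WT libraries, so the difference is read from the deposited direct comparison, as nac25 over nac1L. Its q was 0.000463 for each of the 7. A call there was a condition for entering this group, so that q is no separate support. Of these, 6 were higher in nac1L and lower in nac25, each over WT. Over all 17743 genes it tested, the direct comparison called 11.7% higher in nac1L and 0.609% lower. AT3G16530, a lectin-like gene, had log2 folds of 1.67 in nac1L and -1.64 in nac25 over WT, a direct log2 fold of -3.31. PER52, a class III peroxidase gene, had 0.90 in nac1L and -1.23 in nac25, and -2.13 directly. The neighbouring glutathione S-transferase genes GSTF7 and GSTF6 had 1.10 and 0.92 in nac1L, against -1.02 and -0.89 in nac25, and -2.11 and -1.81 directly; they are close copies, so how reads were split between them is uncertain. PRN1, a pirin gene, had 0.80 (q = 0.0495) in nac1L and -1.15 (q = 0.0116) in nac25, and -1.96 directly. AT1G26420, a berberine bridge enzyme-like gene, had 0.92 (q = 0.0146) in nac1L and -0.85 (q = 0.0449) in nac25, and -1.78 directly. AT1G67105 was the reverse case, with -0.63 (q = 0.0206) in nac1L and 0.74 (q = 0.00381) in nac25, and 1.37 directly. With folds centred on the median of all tested genes, AT1G67105 was no longer called in nac1L against WT. The spread of these genes among libraries could not be examined.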

How the results depend on the processing

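No direction was reversed in the results recomputed. At a q threshold of 0.01, 1009 genes were called higher in nac1L, against 1754 at 0.05, as were 74 against 115 list members; the lower counts stayed within 1.5 times. With a minimum of 2-fold, 157 genes were higher and 1130 lower, against 3449 lower without it, and 19 list members were higher and 165 lower, against 413 lower without it. Between the mutants, a q threshold of 0.01, added after seeing the data, left 713 genes higher in nac1L against 2078, and 60 lower against 108. Adjustment over this comparison alone gave 1812 higher and 3497 lower, nuclear genes alone 1744 and 3444, and centring 2269 and 2775. Of 288 named genes with a tested, finite fold, 13 lost their call on centring, among them ATHB-15, AOX1A and the plastid RPS18, and 45 lost it at a q of 0.01. Proteasome and nucleolar counts fell by more than 1.5 times on centring. No paired analysis was possible because the deposited table gives no values per library; for the same reason leaving out replicates, another normalization and a filter on low values were not run. Depth is unknown, so a gene without a call may still differ.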
